A study of Homo sapiens with 44 samples.

Results

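The contractile genes of myofibroblasts were followed here through their open chromatin: 344 of the 407383 rows of the bulk ATAC-seq coverage matrix name 1 of 10 genes (ACTA2, TAGLN, ACTG2, LMOD1, MYH11, CNN1, MYLK, CALD1, TPM1 and TPM2) as their gene, and all 344 passed the filter on low coverage. A row is a window of 500 bases of the genome, and its deposited label carries a gene name and says whether it counts as promoter, exon, intron or distal sequence. The cells were Ccd18-Co, a human colon fibroblast line, so all libraries come from the same line. Each of 11 groups held 4 libraries: unstimulated cells, and cells given TGF-β1, TNF, OSM, IL-13, IFNγ, IFNα, IL-6, IL-17A or IL-22 at 10 ng/ml, or IL-1β at 0.1 ng/ml. That IL-1β dose is the one in the labels and methods, and a figure legend of the study gives a lower one. By the study's methods, cells were starved without serum first, then given the cytokine in serum-free medium and collected a day later. Results below hold for that baseline and that 1 time only. No label says whether the 4 libraries of a group came from separate cultures, so the p-values below measure only the spread between these libraries. Assay for transposase-accessible chromatin (ATAC-seq) counts where an enzyme can cut the DNA, and no value below is a level of RNA or protein. In bulk libraries, a site open in fewer cells and a site less open in each cell cannot be told apart.

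Contractile cells shorten when myosin pulls on filaments of smooth muscle actin. Actin filaments are stabilised by tropomyosins, calponin and caldesmon restrain their interaction with myosin, and myosin light chain kinase switches myosin on in response to calcium. Many of these genes are controlled by serum response factor, which binds the CArG box together with myocardin family coactivators, and in the gut their products mark smooth muscle and myofibroblasts, the contractile stroma of fibrotic tissue.

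Values are coverage per Mb, that is, bases of read coverage in a row per megabase (Mb) of read coverage over all rows, after a composition factor for each library. Coverage over all rows came to between 148.8 and 823.1 Mb per library, and 1 read of 75 bases was worth 0.0984 to 0.443 per Mb. The shallowest library was IL-6 replicate 4, in which 27.1% of all rows had no coverage. Promoter rows of the fibroblast genes COL1A1, COL1A2, COL3A1, PDGFRB and TWIST1 were open in unstimulated cells, at 24, 13.4, 8.93, 16.1 and 7.76 per Mb, against 0.538 to 1.9 per Mb for 4 endothelial genes. LUM, another fibroblast gene, stood at 0.903 per Mb, and no promoter row names PDGFRA, THY1 or DCN.

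The gene name of a row did not always give the gene it lies in. Against the GENCODE annotation (hg38), 231 of the 344 rows lay inside the gene they name, 113 lay outside it and 42 were centred within 1 kb of one of its starts. None of the 12 rows named for ACTA2 lay inside ACTA2. The row over the ACTA2 start (chr10:88952575-88953075) carries the name of the antisense gene ACTA2-AS1. All 33 rows inside the ACTA2 gene are named for ACTA2-AS1 (15) or FAS (18), the neighbouring death receptor gene. Likewise 80 of the 104 rows inside MYLK are named for its antisense genes and 59 of 129 inside CALD1 for AGBL3. Results are therefore given for the rows as named and, beside them, for the row nearest to the MANE start of each gene (the start of its reference transcript), a choice made after the annotation was compared. Those start rows were centred 51 to 207 bases before the start.

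The sequences shown are the promoters of ACTA2 and ACTG2, whose start rows had the largest log2 changes with IL-1β and IL-13 among the 10, that of LMOD1 as an example of a smaller change, and an upstream CALD1 element with the largest fall among rows called under IL-1β. The first 3 are the 250 bases before the gene's start, 5′ to 3′ on the gene's strand, from RefSeq (GRCh38.p14): ACTA2 at chr10:88952774-88953023 on the minus strand, ACTG2 at chr2:73892758-73893007 on the plus strand and LMOD1 at chr1:201946549-201946798 on the minus strand. The last is the central 300 bases of the CALD1 row, read from hg38 at chr7:134742311-134742610 on the plus strand. Capitals mark CArG boxes (in ACTG2) and the MCAT element CATTCC on either strand (in the others), the site that TEAD factors bind.
ACTA2: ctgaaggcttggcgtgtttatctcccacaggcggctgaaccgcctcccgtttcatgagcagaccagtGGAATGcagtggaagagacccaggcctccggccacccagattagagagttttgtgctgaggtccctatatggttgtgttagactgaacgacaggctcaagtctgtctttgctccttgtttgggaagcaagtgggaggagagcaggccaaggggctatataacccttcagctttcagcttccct
ACTG2: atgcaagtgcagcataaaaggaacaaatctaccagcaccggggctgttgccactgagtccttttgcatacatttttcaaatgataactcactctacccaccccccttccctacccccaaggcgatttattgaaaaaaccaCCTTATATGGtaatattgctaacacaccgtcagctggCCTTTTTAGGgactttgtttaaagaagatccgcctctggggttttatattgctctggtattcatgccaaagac
LMOD1: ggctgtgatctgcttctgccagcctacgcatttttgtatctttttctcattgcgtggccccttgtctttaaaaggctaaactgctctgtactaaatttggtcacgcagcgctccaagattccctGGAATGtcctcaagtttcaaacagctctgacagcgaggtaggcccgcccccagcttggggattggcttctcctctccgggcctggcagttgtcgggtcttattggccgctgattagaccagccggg
CALD1: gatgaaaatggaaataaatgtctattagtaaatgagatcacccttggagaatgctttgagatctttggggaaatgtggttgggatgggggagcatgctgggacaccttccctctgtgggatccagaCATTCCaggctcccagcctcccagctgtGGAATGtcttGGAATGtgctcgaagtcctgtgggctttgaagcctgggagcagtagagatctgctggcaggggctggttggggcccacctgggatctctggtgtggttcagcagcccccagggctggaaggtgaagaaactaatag

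ACTG2 held 2 CArG boxes in this window, where 1.16% of 35116 RefSeq promoters held at least 1. The strict CArG box, with only A and T at its centre, has no match in the ACTA2 and LMOD1 windows, which says only that these letters are not there. Near matches were left unmarked: ccctatatgg and ccttgtttgg in ACTA2 and ctaaatttgg in LMOD1 each differ from it by 1 base. Over the whole 500-base rows, the CArG box was found in 18 of 344 contractile rows (5.23%) and in 3.2% of all rows. The MCAT element was in 27.3% of contractile rows and 28.7% of all rows, and the AP-1 motif TGANTCA in 62 of 344 rows (18%) and 25.7% of all rows. The palindrome GTCTAGAC, a SMAD site, was in 1 row (0.291%) against 0.341% of all rows. Motifs were searched on both strands, and a match is a description and not a measured site. Of the 41 rows lowered by IL-1β, described next, 6 held a CArG box, 10 the MCAT element, 5 the AP-1 motif and 0 the SMAD palindrome. Of the 26 raised by IL-13, these were in 4, 6, 1 and 0.

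IL-1β lowered contractile gene chromatin. By row name, most of the lowered rows were at TAGLN and TPM1, and 9 of the 10 genes had at least 1. Against unstimulated cells, 41 of 344 rows fell (11.9%) and 1 rose (0.291%), where over all rows tested 1.7% fell and 1.44% rose (limma, Benjamini-Hochberg adjusted p below 0.05). The median log2 change was -0.26 over the contractile rows and 0.009 over all rows. TAGLN contributed 12 of its 18 rows, TPM1 11 of 63, CALD1 6 of 99 and LMOD1 4 of 17. ACTG2 gave 3 of 15, TPM2 2 of 14 and CNN1 1 of 11. MYH11, with 1 of 68 (1.47%), was below the share of all rows, and MYLK had 1 of 27 lowered and 1 raised. Of the 42 rows within 1 kb of a start, 14 fell, and the share among such rows of other genes was not computed. Calls under IL-1β numbered between 31 and 47 when 1 library was left out. Of the 42 calls, 19 held under every alternative that tested the row. The median over 65 rows with a mean of at least 5 per Mb was -0.62, and 5 of them had a change above 0. All rows of that level had a median of -0.07. Of the rows named for TAGLN and TPM1, 10 of 18 and 32 of 63 lay outside those genes. Rows were also counted by position, in or up to 1 kb before each gene. IL-1β then lowered 11 of 33 at TPM1, 9 of 105 at MYLK and 8 of 9 at TAGLN. All 10 genes had at least 1 lowered row, and 1 MYLK row rose.

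IL-13 raised contractile gene chromatin, by row name mostly at TPM1 and TAGLN. Against the same unstimulated libraries it raised 26 rows (7.56%) and lowered 1 (0.291%), where 0.604% of all rows rose and 0.698% fell, with a median of 0.2 over the contractile rows and -0.043 over all rows. TPM1 gave 12 of the raised rows, TAGLN 6, MYH11 3, ACTG2 and CALD1 2 each and TPM2 1. No row named for ACTA2, LMOD1, CNN1 or MYLK rose. The only named row that fell lies in a MYLK intron. Of the 27 calls, 6 held under every alternative that tested the row. The number of calls rested on single libraries: without IL-13 replicate 1, 3 or 4 it was 12 each time, and without unstimulated replicate 3 or 4 it was 14 and 9. At most 1 row was lowered in each of these fits, and with a pseudocount of 0.1 there were 16 raised rows and 1 lowered. The ranking of genes depended on row names. By position, IL-13 raised 10 of 33 rows at TPM1, 6 of 35 at ACTA2 and 5 of 9 at TAGLN. At MYLK it raised 4 of 105 and lowered 2, and at LMOD1 it raised 1 of 31.

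**Figure D1:**
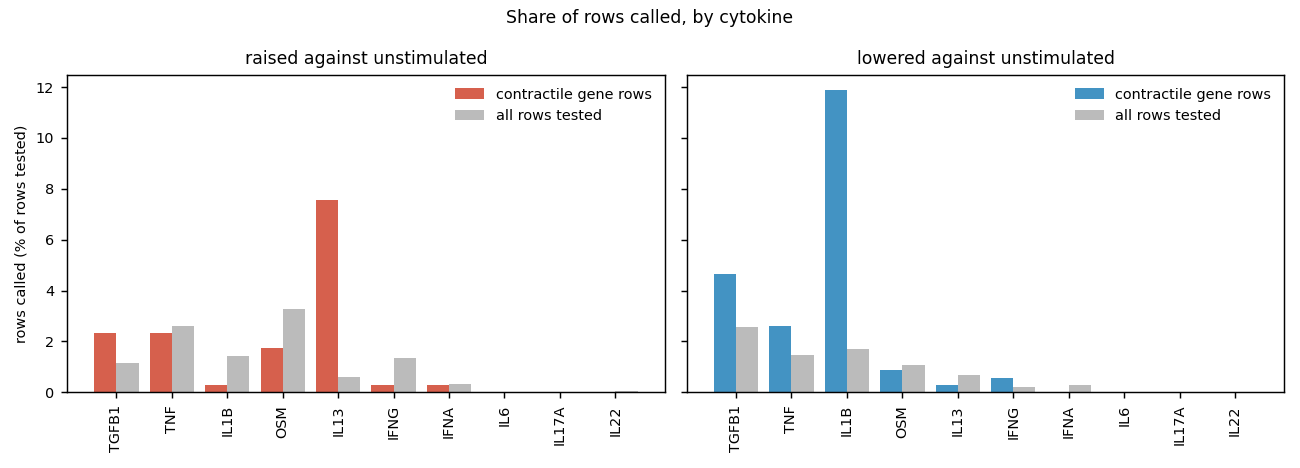
Bars give the percentage of rows raised (left) or lowered (right) by each cytokine against unstimulated cells, for the 344 contractile gene rows (coloured) and all rows tested (grey). IL-1β lowered 11.9% of contractile rows against 1.7% of all rows, and IL-13 raised 7.56% against 0.604%.

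Among the start rows, the largest log2 changes were at ACTA2, which encodes α-smooth muscle actin, the defining actin of myofibroblasts. The 4 unstimulated libraries stood at 20.2, 20.9, 24.4 and 12.2 per Mb. Under IL-1β they were 8.36, 7.28, 7.56 and 7.65, and under IL-13 52.6, 40.2, 47.8 and 51.9. Neither cytokine's libraries overlapped the unstimulated ones. The mean fell from 19.4 ± 5.14 to 7.71 ± 0.458 with IL-1β (SD, n = 4; log2 change -1.24, SE 0.16, limma adjusted p = 6.5e-11) and rose to 48.1 ± 5.7 with IL-13 (1.32, SE 0.16, adjusted p = 3.28e-11). Both calls held under all 23 alternatives, with log2 changes of -1.44 to -1.11 and of 1.12 to 1.44. TGF-β1, at 19.3, 18.2, 22 and 17.7 per Mb, lay among the unstimulated values (log2 change 0.03, adjusted p = 0.965). The reads cannot be assigned to ACTA2 rather than to its antisense gene, which overlaps this window.

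ACTG2, the γ-smooth muscle actin of enteric muscle, was also lower with IL-1β and higher with IL-13 at its start (chr2:73892551-73893051). Its libraries stood at 22.8, 23.7, 25.1 and 22.6 per Mb unstimulated, 14.2, 9.01, 9.33 and 10.7 with IL-1β, and 46.1, 28.8, 46.9 and 43.2 with IL-13. All IL-1β libraries lay below and all IL-13 libraries above the unstimulated range. The log2 changes were -1.11 (SE 0.14, limma adjusted p = 2.93e-10) and 0.77 (SE 0.14, adjusted p = 0.000137). A second ACTG2 row, in the intron 1277 bases past the start, rose with IL-13 from 2.47, 1.72, 1.53 and 2.5 to 7.3, 4.94, 4.51 and 6.5 per Mb (log2 change 1.3, adjusted p = 0.00308).

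TAGLN encodes transgelin, an actin-binding protein of smooth muscle, and its start was the most open of the 10. Unstimulated libraries gave 64.9, 56.6, 52.9 and 48 per Mb, IL-1β libraries 42.9, 36.4, 34.1 and 38.9, and IL-13 libraries 77.1, 75.9, 75.8 and 80.3. The 3 groups did not overlap. The log2 changes were -0.54 (SE 0.1, limma adjusted p = 3.02e-05) and 0.48 (SE 0.1, adjusted p = 0.00088), and both calls held under all 23 alternatives. A row named for TAGLN but lying 10409 bases past its start, outside the gene and beside a start of PCSK7, fell further with IL-1β, from 15.3, 14.5, 10.8 and 13.1 to 5.83, 4.01, 4.73 and 3.86 per Mb (-1.45, adjusted p = 3.73e-11).

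**Figure D2:**
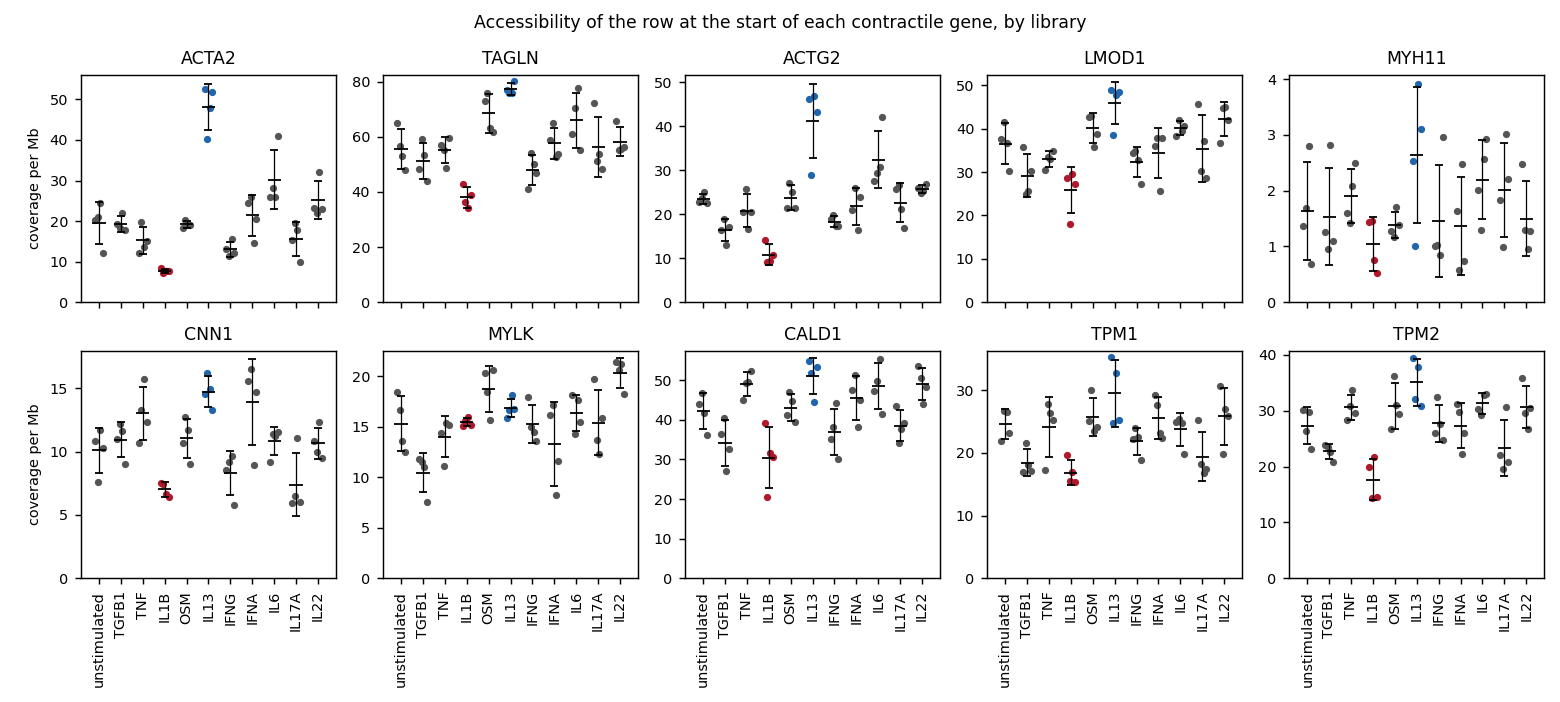
Points give the coverage per Mb of each library at the row over the start of each gene, by group, and black lines the mean and SD of 4 libraries. IL-1β (red) is low and IL-13 (blue) high at ACTA2, TAGLN and ACTG2, while MYLK stands at 15.4 per Mb with IL-1β and 15.3 unstimulated.

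Genes that organise the filament fell at their starts as well. With IL-1β the start row of LMOD1 (leiomodin, which nucleates actin filaments) fell from a mean of 36.6 to 25.8 per Mb (log2 change -0.51, limma adjusted p = 0.00267). That of TPM1 fell from 24.6 to 16.8 (-0.53, adjusted p = 0.0101), that of TPM2 from 27.4 to 17.7 (-0.63, adjusted p = 0.000322) and that of CALD1 from 42.2 to 30.5 (-0.49, adjusted p = 0.0016). LMOD1 and CALD1 lost the call without IL-1β replicate 2 (adjusted p = 0.153 and 0.167), and TPM1 without unstimulated replicate 2 or 3 or IL-1β replicate 4. In all, 7 of 10 start rows fell with IL-1β and 3 rose with IL-13 (ACTA2, TAGLN and ACTG2), the changes with IL-13 being above 0 at all 10. Over all rows tested, 1.7% fell with IL-1β and 0.604% rose with IL-13. Every start row but that of MYH11 was more open than the median promoter row, at 2.96 per Mb. The share called among equally open rows was not computed.

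CNN1, MYH11 and MYLK were not called at their starts with either cytokine. CNN1 (calponin) stood at 7.54, 7.45, 6.67 and 6.37 per Mb with IL-1β, below its unstimulated 10.8, 7.57, 11.7 and 10.3 (adjusted p = 0.183). The MYH11 start, for the smooth muscle myosin heavy chain, was barely open at 1.63 ± 0.883 per Mb unstimulated, with an SE of 0.35 on the log2 change, and neither change was detectable at this level (-0.43, limma adjusted p = 0.709 with IL-1β and 0.55, adjusted p = 0.601 with IL-13). A MYH11 row 1357 bases upstream, its most open promoter row, rose with IL-13 from 8.6, 6.91, 8.33 and 4.43 to 13.4, 13.1, 13.6 and 14.2 per Mb (log2 change 0.93, SE 0.2, limma adjusted p = 0.0019). That call was lost without unstimulated replicate 4 (adjusted p = 0.0731).

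**Figure D3:**
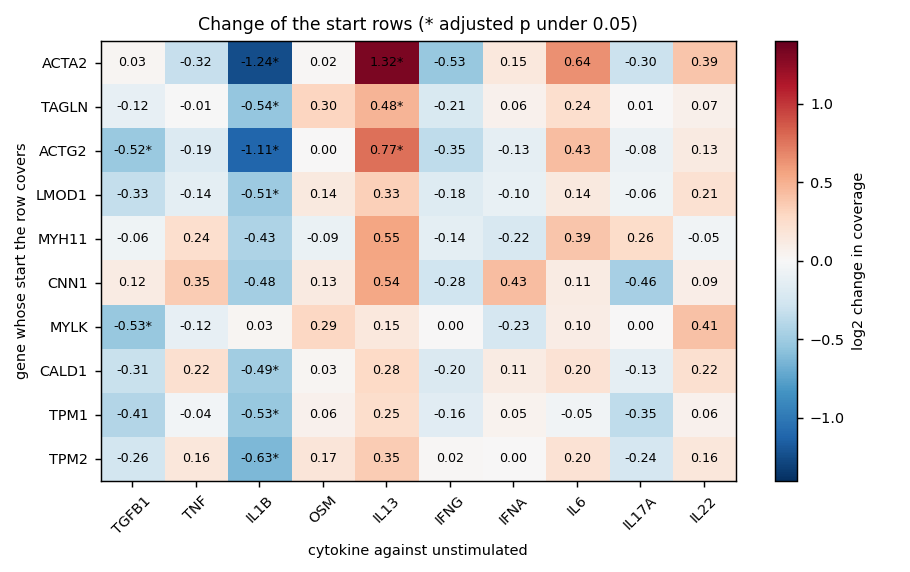
Each cell gives the log2 change in coverage of the start row of a gene under a cytokine against unstimulated cells, red for higher and blue for lower, with an asterisk where the adjusted p was under 0.05. The IL-1β column has 7 asterisks, all lower, and the IL-13 column 3, all higher.

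The largest falls lay upstream of CALD1, which encodes caldesmon. The row at chr7:134742210-134742710, shown above, lies 37174 bases before the MANE start and 1792 bases before the nearest alternative start. It held 9.69, 10.6, 7.28 and 8.27 per Mb unstimulated and 1, 2.09, 2.51 and 0.994 with IL-1β (log2 change -2.2, SE 0.21, limma adjusted p = 1.69e-18). TNF took the neighbouring row, 1088 bases before that start, from 16.7, 22.8, 21.5 and 10.4 to 4.92, 4.88, 8.6 and 9.63 (-1.29, SE 0.17, adjusted p = 4.7e-10). That row fell as well with IL-1β (-1.7, adjusted p = 2.24e-16) and TGF-β1 (-0.94, adjusted p = 2.2e-05), each under all 23 alternatives. It rose with OSM (0.67, adjusted p = 0.00644), a call lost under library totals, median-of-ratios scaling, loess offsets and without unstimulated replicate 4.

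Among the rows inside the genes, an LMOD1 intron 20250 bases past the start fell with both TNF and IL-1β. It held 9.52, 13.6, 12.3 and 12 per Mb unstimulated, 3.11, 6.89, 5.68 and 4.18 with TNF, and 5.58, 5.31, 3.42 and 5.22 with IL-1β. The changes were -1.22 (limma adjusted p = 2.54e-07) and -1.21 (adjusted p = 4.74e-07). A MYH11 intron 27363 bases past the start fell with IL-1β (-0.95, adjusted p = 6.45e-05) and TGF-β1 (-0.95, adjusted p = 7.36e-05). In TPM1, which encodes a tropomyosin, the intron row 6992 bases past the start and near a start of TPM1-AS rose with IL-13 from 5.09, 4.77, 2.78 and 2.94 to 13.3, 8.49, 12.5 and 12.7 per Mb (1.5, SE 0.24, adjusted p = 3.17e-06).

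MYLK encodes the kinase that activates myosin. Of the rows as named, the only one raised by IL-1β is a MYLK intron 49482 bases past the start. It stood at 6.13, 4.23, 6.88 and 4.23 per Mb unstimulated, 12.3, 8.34, 8.89 and 12.9 with IL-1β, and 17.4, 16.5, 11.6 and 16.9 with TNF. Neither cytokine's libraries overlapped the unstimulated ones (0.93, limma adjusted p = 0.00412 and 1.47, adjusted p = 1.36e-07). TNF raised 4 of the 27 rows named for MYLK and lowered none. Over the 105 rows in or just before the gene, whatever their name, TNF raised 6 (5.71%) and lowered 2 (1.9%), IL-1β raised 1 (0.952%) and lowered 9 (8.57%), and IL-13 raised 4 (3.81%) and lowered 2 (1.9%). Over all rows TNF raised 2.59% and lowered 1.47%. It also raised 1 of 63 rows named for TPM1 (1.59%) and 1 of 68 for MYH11 (1.47%), both below that share. Of the 12 rows named for ACTA2, all outside the gene, it raised 2. By position it raised 0 of 35 ACTA2 rows and lowered 1.

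**Figure D4:**
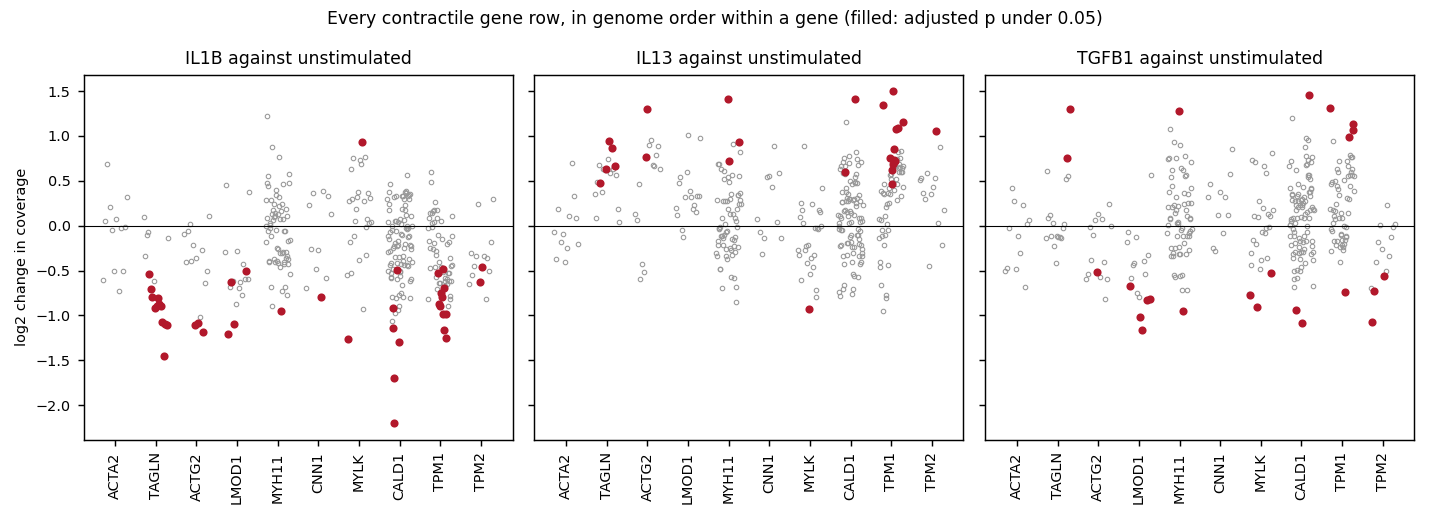
Points give the log2 change of each contractile gene row under IL-1β, IL-13 and TGF-β1 against unstimulated cells, grouped by gene, with rows of adjusted p under 0.05 filled. Filled points lie below 0 under IL-1β except 1 MYLK row and above 0 under IL-13 except another MYLK row.

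IL-13 and IL-1β were also set directly against each other, a comparison added after these values were seen and made at unequal doses. IL-13 was higher at 99 rows and lower at 8, or 28.8% and 2.33% of contractile rows, against 3.72% and 4.06% of all rows. The count was 93 to 106 when 1 library was left out. Start rows were higher at 8 of 10 genes, by 2.56 at ACTA2 (SE 0.16, limma adjusted p = 1.94e-38), 1.88 at ACTG2 and 1.02 at TAGLN. MYH11 (0.98, adjusted p = 0.0612) and MYLK (0.12, adjusted p = 0.786) were the exceptions.

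TGF-β1 gave no single direction. It raised 8 rows (2.33%) and lowered 16 (4.65%), where 1.14% of all rows rose and 2.58% fell, and the split depended on scaling: it was 14 raised and 11 lowered with library totals, 15 and 6 with median-of-ratios scaling, 11 and 5 with loess offsets, and 5 and 18 with GC correction. Without unstimulated replicate 2 or 3, calls numbered 13 and 12. Of the 24 calls, 5 held under every alternative that tested the row. Rows with the same call under all 23 alternatives included a CALD1 intron 10876 bases past the start, which fell from 17.8, 17.8, 21.2 and 19.1 to 11.6, 6.75, 8.2 and 8.5 per Mb (-1.09, SE 0.16, limma adjusted p = 3.05e-08). A distal row 30932 bases past the TPM1 start rose from 6.92, 4.05, 2.68 and 2.87 to 9.03, 8.52, 7.65 and 9.61 (1.07, SE 0.26, adjusted p = 0.00391). At the starts, ACTG2 (-0.52, adjusted p = 0.016) and MYLK (-0.53, adjusted p = 0.0404) were lower, and both calls were lost under median-of-ratios scaling and loess offsets. Under the main scaling, open rows in general were lower with TGF-β1 and higher with OSM. With a mean of at least 5 per Mb, the TGF-β1 median was -0.26 over all rows and -0.18 over contractile rows. For OSM these were 0.28 and 0.18. Composition factors were 1.065 to 1.135 in TGF-β1 libraries and 0.87 to 0.923 in OSM libraries. The part of scaling in these medians was not tested.

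Set against other cytokines, TGF-β1 was higher than IL-1β at 48 of 344 contractile rows and lower at 4, where 1.39% of all rows were higher and 2.14% lower. Against TNF it was higher at 6 of 344 and lower at 14 (1.12% and 3.27% of all rows), with 15 higher and 9 lower under median-of-ratios scaling. Without TGF-β1 replicate 3 or TNF replicate 4 that count was 12 and 13. Against OSM it was higher at 20 of 344 and lower at 28, shares close to the 5.32% and 8.59% of all rows. That split became 45 and 6 under median-of-ratios scaling and 8 and 41 with GC correction. Without TGF-β1 replicate 4 the count was 31. The comparisons with unstimulated cells share the same 4 control libraries.

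TNF raised 8 rows (2.33%) and lowered 9 (2.62%), where 2.59% of all rows rose and 1.47% fell, and called no row within 1 kb of a start. The split was 8 and 6 with GC correction and 8 and 5 with a composition factor from unshifted logs. Without TNF replicate 3 the count was 11. OSM raised 6 (1.74%) and lowered 3 (0.872%), where 3.29% of all rows rose and 1.06% fell. The OSM split became 1 and 6 under median-of-ratios scaling and 12 and 3 with GC correction, and the count was 3 without unstimulated replicate 4 and 4 without OSM replicate 2.

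**Figure D5:**
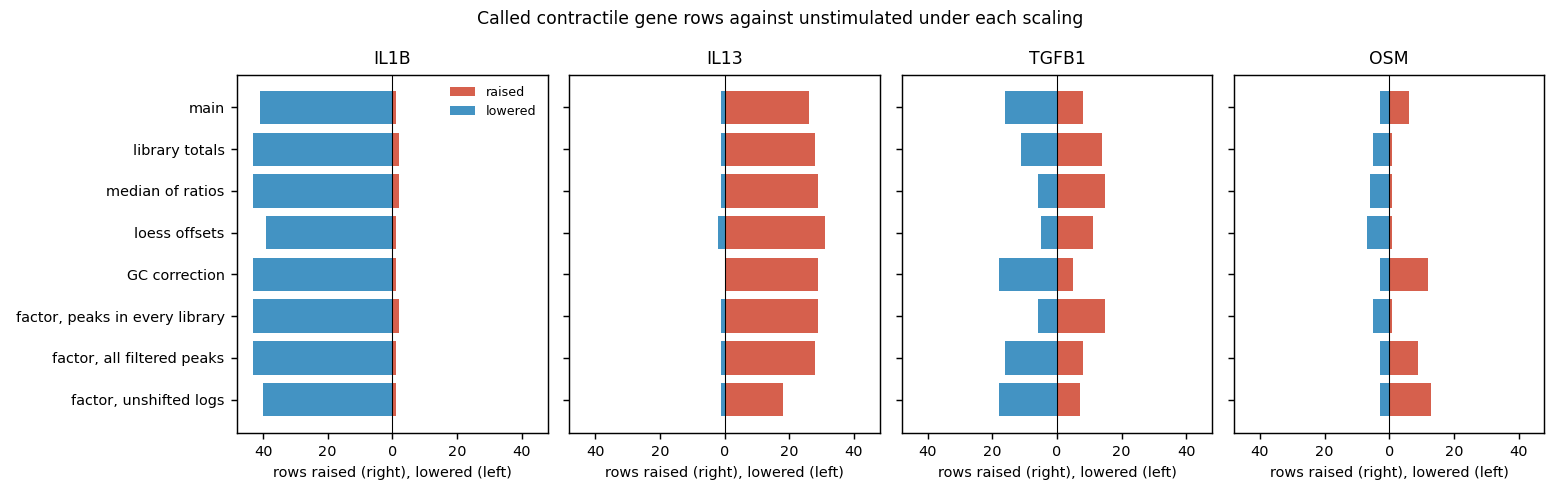
Bars give the number of contractile gene rows raised (right) and lowered (left) against unstimulated cells under 8 ways of scaling the libraries. IL-1β stays at 39 to 43 lowered and IL-13 at 18 to 31 raised, while TGF-β1 and OSM change sides.

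The other cytokines called few contractile rows. IFNγ called 3 and IFNα 1, against 1.57% and 0.62% of all rows. IL-6, IL-17A and IL-22 called 0 by limma, where 29, 17 and 19 rows had an unadjusted p below 0.05 and 0.042%, 0.0273% and 0.0457% of all rows were called. IL-6 called 0 rows also without its shallow replicate 4, in which the ACTA2 start stood at 40.9 per Mb against 25.9, 28.1 and 25.9 in the other IL-6 libraries. Leaving out 1 library took the IFNγ count to between 0 and 2 and that of IFNα to 0 or 1. A row at a low level can change without a call here, so these counts do not show that chromatin was unchanged.

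Across all 11 groups, 134 of 344 contractile rows (39%) differed by the F test of limma, against 21.4% of all rows. The 39% and 21.4% were not matched for level, and rows of low coverage have less power. Shares ran from 14 of 18 for TAGLN, 12 of 17 for LMOD1 and 44 of 63 for TPM1 to 2 of 12 for ACTA2 as named and 8 of 68 for MYH11. Chosen by position, with 451 rows in or up to 1 kb before the genes, IL-1β raised 1 row (0.222%) and lowered 51 (11.3%), where 1.44% of all rows rose and 1.7% fell. IL-13 raised 31 (6.87%) and lowered 2 (0.443%), where 0.604% of all rows rose and 0.698% fell. ACTA2, with 35 rows by position, then had 4 lowered by IL-1β and 6 raised by IL-13.

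Likeness between members was described over the 44 libraries. The correlation of log2 coverage between the most open promoter rows (for ACTG2 its most open row) was 0.81 for TAGLN with ACTG2 and for ACTG2 with LMOD1, and 0.02 for CNN1 with MYLK. Libraries of a group, depth and scaling are common to all points, so these values are descriptions. Among 11254 other promoter rows with a mean of at least 5 per Mb, those most like TAGLN were DDAH1 (r = 0.849), MIR22 (0.794) and CARMN (0.787). For the ACTA2-named promoter row, which lies at an alternative ACTA2 start beside a start of FAS, the highest was GINS1 (0.569).

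Other genes of the cytoskeleton and of its control were counted beside the 10. Of 876 rows of 27 genes, among them MYL9, VCL and FLNA, IL-1β lowered 35 (4%) and raised 10, and IL-13 raised 25 (2.85%) and lowered 1. For 585 rows of 11 regulators of the programme, IL-1β lowered 16 (2.74%) and raised 11 (1.88%), against 1.7% and 1.44% of all rows. IL-13 raised 3 (0.513%) and lowered 5 (0.855%), against 0.604% and 0.698% of all rows. The regulator rows are uneven: KLF4 supplied 217 and TEAD1 110, where SRF supplied 23 and MYOCD 22.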

How the data were processed

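The submitters' notes name hg38 and MACS2, and the methods an ATAC-seq pipeline of ENCODE; the methods describe fixed-width peaks from single-cell ATAC-seq beside bulk peaks of varying length, and whether the rows are those fixed-width peaks is not given in the sources used here. The deposited values are a coverage signal, the bases of read coverage of each library in each window, which is not a count of reads, so a count test was not used. Values were divided by the library total over all rows and by a composition factor, which averages each library's log ratios to the geometric mean library over rows it covers, with 30% of ratios and 5% of levels trimmed at each end. This factor was taken after 5 definitions and some of their call counts had been compared. log2(coverage per Mb + 0.5) was fitted with limma 3.58.1 (R 4.3.3) on all 44 libraries with group as the only term, a variance trend and Benjamini-Hochberg adjustment over 407162 rows with log2 mean above -3. Fold changes on this scale understate those of low rows. The functions were tested on simulated data: fitted changes and false calls were as built in, but the first criterion set, on the share of large changes called, was missed for lowered rows of low coverage and was then replaced by criteria on the fitted change and on false calls, so a missing call is not read as no change. The genes, lists and motifs were chosen with earlier results of these data known. Named rows were the most open promoter row of each gene, up to 3 called rows per direction and cytokine by size with a mean of at least 1 per Mb, and each gene's row of smallest adjusted p. Start rows and the comparison of IL-13 with IL-1β were added after values were seen. Alternatives were other scalings, pseudocounts, filters, weights, GC correction, a replicate block and leaving out each library. Same-numbered libraries shared little deviation from their group means (correlations of -0.0106 to 0.0315). These were taken over rows drawn at random, low ones included, where read noise can hide pairing, so they do not exclude it. The main fit used no pairing, and counts with a replicate block are given below. Total coverage of 148.8 to 823.1 Mb per library sets the precision.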

Additional observations from a re-analysis of the deposited data

Results flagged for a closer look

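In 8 of 110 sets of 4 libraries (11 groups at the most open promoter row of each gene, or for ACTG2 its most open row), 1 library lay far from the other 3 by Dixon's test, which chance gives in about 1 of 20 sets. For TAGLN this was IL-22 replicate 1, at 65.9 per Mb with the next library at 56.4. For LMOD1 it was IL-13 replicate 2 (38.6, next 47.7) and IFNα replicate 3 (25.7, next 36). For MYH11 it was TGF-β1 replicate 2 (10 per Mb, next 6.79) and IL-6 replicate 4 (13.3, next 10.1). For CNN1 it was IL-6 replicate 1 (9.14, next 11.2) and IL-17A replicate 3 (11.1, next 6.51). For TPM1 it was IL-6 replicate 4 (19.9 per Mb, next 24.8), the library with the least coverage, at 148.8 Mb. The part of depth in these values was not tested.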

How the results depend on the processing

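The composition factor was taken after 5 definitions and some of their call counts had been compared, and TGF-β1 and OSM depend on that choice: with a factor from rows covered in every library, TGF-β1 raised 15 and lowered 6 contractile rows and OSM raised 1 and lowered 5. That factor moved the median log2 change of all rows from 0.057 to 0.153 for TGF-β1 and from -0.126 to -0.216 for OSM. IL-1β (40 to 52 rows called) and IL-13 against IL-1β (101 to 122) kept their direction under every alternative other than leaving out a library. Counts moved by over 1.5 times for OSM with GC correction (15), quality weights (18), only the groups compared (19) and a factor from unshifted logs (16). They did so for IL-13 with a pseudocount of 0.1 (17), for TGF-β1 against OSM with loess offsets (20) and quality weights (77), and for TGF-β1 against TNF with rows chosen by position (32). IFNγ gave 5 by position, 0 with a pseudocount of 0.1, 5 with quality weights, 6 with only the groups compared and 1 with unshifted logs, and IFNα gave 2 by position, 0 with a pseudocount of 0.1, 2 with a stricter filter and 2 with quality weights. The cause was not tested. Leaving out 1 library gave 12 to 20 calls for TGF-β1, 11 to 15 for TNF, 3 to 10 for OSM, 9 to 22 for IL-13, 0 to 2 for IFNγ, 0 to 1 for IFNα, 12 to 18 for TGF-β1 against TNF and 31 to 42 against OSM.

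Signs turned under loess offsets at start rows. For TGF-β1 against OSM the log2 change became 0.35 at CALD1 (0.01 with median-of-ratios scaling), 0.21 at LMOD1, 0.21 at TPM2, 0.31 at TAGLN, 0.15 at TPM1 and 0.09 at ACTG2. TAGLN became 0.25 for TGF-β1 against TNF and 0.28 against unstimulated cells (limma adjusted p = 0.0162), and CALD1 became -0.3 for OSM (adjusted p = 0.0439). Of 4807 log2 changes of named rows under the alternatives, 4526 kept direction and side of the threshold, 198 lost a call, 73 gained one and 10 turned. With the replicate number as a block the counts were 25 for TGF-β1, 17 for TNF, 45 for IL-1β, 11 for OSM, 27 for IL-13, 3 for IFNγ, 1 for IFNα and 108 for IL-13 against IL-1β. At most 2 of the 4 libraries of a cytokine correlated best with the unstimulated library of their number. Replicate 4 of TGF-β1, IL-1β, OSM, IL-6, IL-17A and IL-22 was among these, and whether replicates 4 share a batch was not tested. Rows of low coverage and changes of small size have limited power here.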
